A study of Mus musculus with 6 samples.

Results

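Transcripts of 10 genes that coat or assemble lipid droplets were examined in epididymal white adipose tissue, the abdominal fat pad attached to the epididymis of male mice. The genes were the perilipins Plin1, Plin2, Plin3, Plin4 and Plin5, the fusion protein gene Cidec, the assembly genes Bscl2, Fitm1 and Fitm2, and the droplet protein gene Hilpda. They were chosen by name for their role on droplets, with earlier results of these data known. Every probe carrying one of the names or an older symbol was taken. The array held 13 such probes among 41174 probes for 29061 genes or unnamed features, and Hilpda was found under its older symbol 2310016C08Rik. Of these, 12 probes for 9 genes were well above background on all 6 arrays and entered the test, and the single probe of Fitm1 did not.

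The tissue came from 3 patDp/+ mice and 3 wild type mice. All were males on the C57BL/6 background, 9 to 10 weeks old, and no treatment is named in the labels. patDp/+ mice carry an extra, paternally inherited copy of the part of chromosome 7 that matches human 15q11-13, in all cells of the body rather than in fat alone. RNA of each animal was hybridised to 1 array with a single dye (Cy3). The series title speaks of late onset obesity and altered lipid metabolism, and the comparison concerns fat of young adults.

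A lipid droplet stores triglyceride behind a single layer of phospholipid, and proteins on that layer decide how far lipases reach the store. Droplets arise in the membrane of the endoplasmic reticulum, where seipin, the product of Bscl2, organises the site of budding and the FIT proteins, products of Fitm1 and Fitm2, help neutral lipid leave the membrane. White adipocytes hold a single large droplet coated mainly by perilipin 1, and CIDEC at contacts between droplets moves lipid from the smaller into the larger. Loss of PLIN1, CIDEC or seipin function is known to cause lipodystrophy in humans.

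The probes of the assembly genes are shown because the lowest unadjusted p among the 10 genes belonged to Bscl2 and because Fitm1 was the gene without a measurable level. The lines give the 60-base probes of these genes as printed on the array, 5′ to 3′.
Bscl2 probe: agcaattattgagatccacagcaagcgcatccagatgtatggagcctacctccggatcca
Fitm1 probe: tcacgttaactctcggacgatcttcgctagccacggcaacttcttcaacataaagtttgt
The Bscl2 probe lies at chr19:8920973-8921032 on the plus strand and the Fitm1 probe at chr14:56194734-56195160 on the plus strand, with coordinates of the scanner files, whose build is mm9. The Fitm1 probe covers 427 bases of the genome with its 60 bases, so it spans a gap in the genome, whereas each of the other 12 probes covers 60. The Bscl2 probe has 2 forward reading frames without a stop codon and the Fitm1 probe has 1. The files give no exon annotation for any probe. The pair of Hilpda probes shares the 15 bases gtcctaaaggactct, so these probes are not independent measurements.

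No lipid droplet gene differed between the groups after adjustment over all probes. Of 9 measured genes, 0 were higher and 1, Bscl2, was lower in patDp/+ fat at an unadjusted p under 0.05, and the smallest adjusted p among the 9 was 0.942 (limma with Benjamini-Hochberg adjustment). Over all 27975 probes tested, 0% passed an adjusted p of 0.05 and the smallest adjusted p was 0.44. At an unadjusted p under 0.05, 5.26% of all probes differed, 2.09% being higher and 3.16% lower in patDp/+ fat. The 95% intervals of the 9 representative probes lay between 0.70-fold and 1.38-fold of the wild type level, and over all 12 tested probes the lower limit was 0.615-fold, at the other Bscl2 probe. In a piece of whole tissue, fewer cells of a type and less RNA per cell cannot be told apart.

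In the members' own values, 7 of the 9 genes had a lower mean in patDp/+ fat, with a median log2 difference of -0.12. Over all probes 56.6% had a difference below 0, with a median of -0.021 and an interquartile range from -0.11 to 0.07. This split depended on the scaling, since 35.2% of all probes were lower with normexp background correction and 35.5% with arrays centred on adipocyte markers. With those settings 8 and 5 of the 9 lipid droplet genes were lower, and with quantile normalization 5. The median of the 9 genes was -0.24 with normexp, -0.05 with adipocyte centring, -0.04 with quantile normalization and -0.06 in the deposited table. It was also -0.06 when either wild type replicate 1 or patDp/+ replicate 1 was left out. Taken within the 3 slides, each of which held 1 array of each group, the median of the 9 genes was -0.19 on slide 1, -0.03 on slide 2 and 0.02 on slide 3. Among the 9 measured genes, groups did not overlap for Plin5 and Bscl2, both lower in patDp/+ fat. Over all probes the groups did not overlap for 10.6%, and did so with patDp/+ lower for 6.59%.

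**Figure D1:**
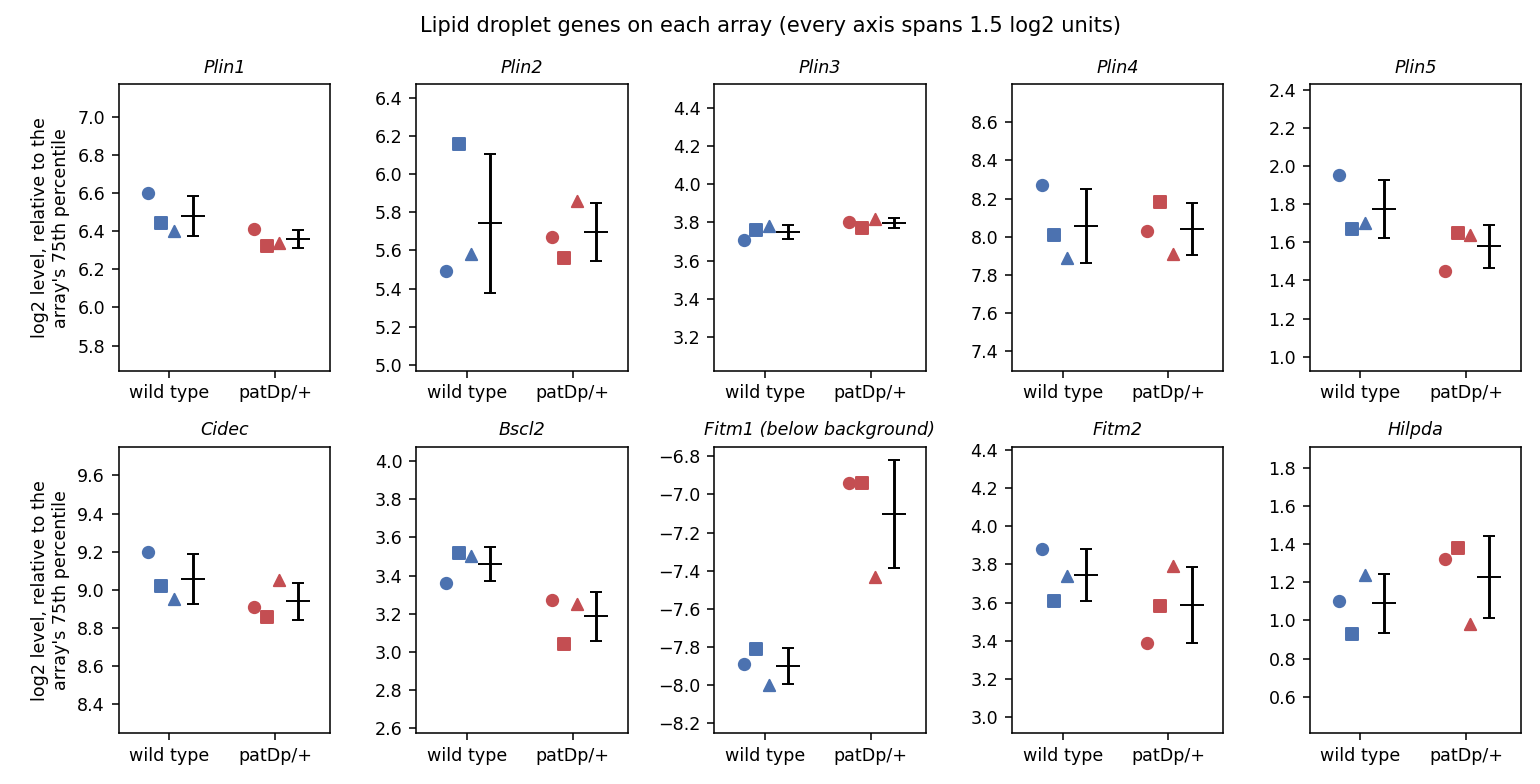
Level of each lipid droplet gene on each of the 6 arrays, as log2 relative to the array's 75th percentile, with wild type in blue and patDp/+ in red, circles, squares and triangles for slides 1, 2 and 3, and the group mean with its SD (n = 3) in black. Every axis spans the same number of log2 units but starts at its own level, so heights may be read within a gene only. Among the measured genes, the groups of Plin5 and Bscl2 do not overlap. Those of Fitm1 do not overlap either, with patDp/+ higher, but Fitm1 was not well above background on any array.

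Levels below are log2 values of the processed signal relative to the 75th percentile of the array, in the order of replicates 1, 2 and 3, and differences are patDp/+ minus wild type on the same scale with limma's standard error. The brightness of a probe depends on its sequence, so the level of one gene was not set against that of another.

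Plin1 encodes the main coat protein of the adipocyte droplet, which restrains lipolysis until it is phosphorylated. Its level was 6.60, 6.44 and 6.40 in wild type fat and 6.41, 6.32 and 6.34 in patDp/+ fat. The patDp/+ values sat at the low end, and wild type replicate 3 and patDp/+ replicate 1 made the groups overlap. The difference was -0.12 ± 0.09, a ratio with a 95% interval of 0.793 to 1.06 (limma, unadjusted p = 0.197, adjusted p = 0.954). It was below 0 on each slide, at -0.19, -0.12 and -0.06, and was -0.06 over all slides when wild type replicate 1 was left out. The Plin1 probe, at chr7:86866112-86866171 on the minus strand, is on the chromosome that carries the duplication, but 17.3 Mb beyond the probe of Mkrn3 at one end of the duplicated stretch.

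Plin2 encodes a perilipin found on droplets of most cell types, which is degraded when it is not bound to lipid. Its level was 5.49, 6.16 and 5.58 in wild type fat and 5.67, 5.56 and 5.86 in patDp/+ fat. Wild type replicate 2 stood above the other 5 arrays, and the patDp/+ values lay within the wild type range. The difference was -0.05 ± 0.19 (limma, unadjusted p = 0.816, adjusted p = 0.99), with a 95% interval of 0.70 to 1.34 in ratio. Within slides it was 0.19, -0.60 and 0.28, and without wild type replicate 2 it was 0.16 (unadjusted p = 0.231). Centring the arrays on adipocyte markers turned it to 0.02. Plin2 had the widest range over the 6 arrays of the representative probes, 0.67, against a median of 0.41 over all probes tested.

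Plin3 encodes a perilipin that is soluble in the cytosol and moves onto nascent droplets. Its level was 3.71, 3.76 and 3.78 in wild type fat and 3.80, 3.77 and 3.82 in patDp/+ fat. All 6 values lay within 0.10, the narrowest range of the 9 measured genes. The difference was 0.05 ± 0.07 (limma, unadjusted p = 0.519, adjusted p = 0.966), with a 95% interval of 0.919 to 1.16 in ratio, and normexp background correction turned it to -0.04.

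Plin4 encodes an adipocyte perilipin with a long repeated stretch that coats small new droplets. Its level was 8.27, 8.01 and 7.89 in wild type fat and 8.03, 8.18 and 7.91 in patDp/+ fat. The highest and the lowest value were both wild type. The difference was -0.02 ± 0.13 (limma, unadjusted p = 0.873, adjusted p = 0.994), with a 95% interval of 0.793 to 1.22 in ratio. Its sign turned with the processing, being 0.05 with quantile normalization or adipocyte centring, 0.0046 with cyclic loess and 0.11 with array weights, and it was 0.09 without wild type replicate 1.

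Plin5 encodes the perilipin of tissues that burn fatty acids, where it brings droplets close to mitochondria. Its level was 1.95, 1.67 and 1.70 in wild type fat and 1.45, 1.65 and 1.64 in patDp/+ fat. The groups did not overlap, by 0.02 between wild type replicate 2 and patDp/+ replicate 2. The difference was -0.19 ± 0.11 (limma, unadjusted p = 0.133, adjusted p = 0.951), with a 95% interval of 0.729 to 1.05 in ratio. Slide 1 carried most of it, with -0.49 there and -0.02 and -0.06 on slides 2 and 3, and leaving out wild type replicate 1 gave -0.10 (unadjusted p = 0.354). The probes of Plin4 and Plin5 lie 11 kb apart on chromosome 17, and that of Plin3 lies 167 kb beyond Plin5.

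Cidec encodes the protein that fuses droplets into the single large one of white adipocytes. Its level was 9.20, 9.02 and 8.95 in wild type fat and 8.91, 8.86 and 9.05 in patDp/+ fat. The lowest pair of arrays was patDp/+, while patDp/+ replicate 3 lay above 2 of the 3 wild type arrays. The difference was -0.12 ± 0.10 (limma, unadjusted p = 0.285, adjusted p = 0.955), with a 95% interval of 0.78 to 1.09 in ratio. It was -0.28 and -0.16 on slides 1 and 2, 0.10 on slide 3, and 0.04 over all arrays with quantile normalization. Leaving out wild type replicate 1 gave -0.05.

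Bscl2 encodes seipin, which sits at the contact between the endoplasmic reticulum and a growing droplet and is needed for adipocyte differentiation. At the probe shown above, its level was 3.36, 3.52 and 3.50 in wild type fat and 3.27, 3.04 and 3.25 in patDp/+ fat. The highest patDp/+ value stood 0.09 below the lowest wild type value, so the groups did not overlap. The mean was 3.46 ± 0.09 in wild type and 3.19 ± 0.13 in patDp/+ fat (SD, n = 3 each). The difference was -0.28 ± 0.10, a ratio of 0.826 with a 95% interval of 0.701 to 0.974 (limma, unadjusted p = 0.0296, adjusted p = 0.942). It was lower within each slide, by values of -0.09, -0.48 and -0.25. With the slide as a block the unadjusted p was 0.0671 (limma, adjusted p = 0.946).

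The other Bscl2 probe, at chr19:8914163-8914222, read -2.26, -2.81 and -2.82 in wild type fat and -2.59, -2.89 and -3.08 in patDp/+ fat. These groups overlapped, because wild type replicate 1 stood above the rest while the other wild type arrays lay below patDp/+ replicate 1. Its difference was -0.22 ± 0.20 (limma, unadjusted p = 0.299, adjusted p = 0.955). It was -0.04 without wild type replicate 1 and 0.27 with normexp background correction. The gap between the Bscl2 probes on an array differed by -0.05 between groups (exact permutation test, two-sided p = 0.9). Over all 20 alternative settings the difference taken for Bscl2 was below 0, from -0.36 to -0.20. Its unadjusted limma p was under 0.05 in 13 of them, with an adjusted p of 0.501 or more in each. These settings are not separate checks of the estimate. Those that change only the filter, the block or the variance model leave the first probe at -0.28. Another setting took the mean of both probes and gave -0.25 (limma, unadjusted p = 0.0631). Leaving out wild type replicate 2, wild type replicate 3 or patDp/+ replicate 2 gave unadjusted p-values of 0.0832, 0.0861 and 0.0929.

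Fitm2 encodes the FIT protein of most tissues, fat included, and Fitm1 the one of skeletal and heart muscle. The brighter Fitm2 probe, at chr2:163292312-163292371, read 3.88, 3.61 and 3.74 in wild type fat and 3.39, 3.58 and 3.79 in patDp/+ fat. Only patDp/+ replicate 1 stood apart, at the low end, and the groups overlapped. The difference was -0.16 ± 0.13 (limma, unadjusted p = 0.274, adjusted p = 0.955), with a 95% interval of 0.72 to 1.12 in ratio, and with single arrays left out it ranged from -0.26 to -0.06. The other probe, at chr2:163294444-163294503, read -0.37, -0.32 and -0.35 in wild type fat and -0.44, -0.60 and -0.10 in patDp/+ fat. Here the wild type arrays lay close together and the patDp/+ arrays on both sides of them. The difference at this probe was -0.03 ± 0.14 (limma, unadjusted p = 0.81, adjusted p = 0.99).

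Fitm1 was not well above background on any of the 6 arrays and was not tested. Its probe read -7.89, -7.81 and -8.00 in wild type fat and -6.94, -6.94 and -7.43 in patDp/+ fat, and no fold is given because both groups lie below background. Negative control spots had a mean net intensity of 17.3 to 19.7 on the wild type arrays and 17.3 to 22.8 on the patDp/+ arrays. Of 8 skeletal muscle markers 6 were measured in the same tissue, and Ckm and Myh4 were not tested. The myosin light chain gene Myl1 read 3.61 to 3.93 over the 6 arrays, with a difference of 0.03 ± 0.12, whereas Mb, Myoz1, Myh1 and Tnnt3 read below 0 on every array. The summed linear level of all 6 measured markers, Myl1 and Acta1 included, was 13.9 to 17.2 in wild type and 16.5 to 22.2 in patDp/+ fat, relative to the 75th percentile. Acta1, the actin of skeletal muscle, stood at 0.65, 1.04 and 0.98 in wild type and at 1.98, 1.78 and 2.77 in patDp/+ fat (difference 1.29 ± 0.27, limma, unadjusted p = 0.0026, adjusted p = 0.842). The differences of the remaining ones were -0.35 for Mb, 0 for Tnnt3, 0.16 for Myoz1 and 0.23 for Myh1. The median over all 6 measured markers, Acta1 included, was 0.09, and it was 0.67 with normexp background correction.

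Hilpda encodes a small droplet protein that inhibits the triglyceride lipase ATGL and is induced by hypoxia and by fatty acids. At its brighter probe, at chr6:29225096-29225155, the level was 1.1, 0.93 and 1.24 in wild type fat and 1.32, 1.38 and 0.98 in patDp/+ fat. The top pair of arrays was patDp/+, and patDp/+ replicate 3 lay near the bottom. The difference was 0.14 ± 0.14 (limma, unadjusted p = 0.364, adjusted p = 0.955), with a 95% interval of 0.871 to 1.38 in ratio. It was 0.22 and 0.44 on slides 1 and 2 and -0.26 on slide 3. With single arrays left out it ranged from 0.06 to 0.26, and it was 0.06 with normexp background correction. The overlapping probe, at chr6:29225141-29225200, gave 0.08 ± 0.14 (limma, unadjusted p = 0.594, adjusted p = 0.975).

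**Figure D2:**
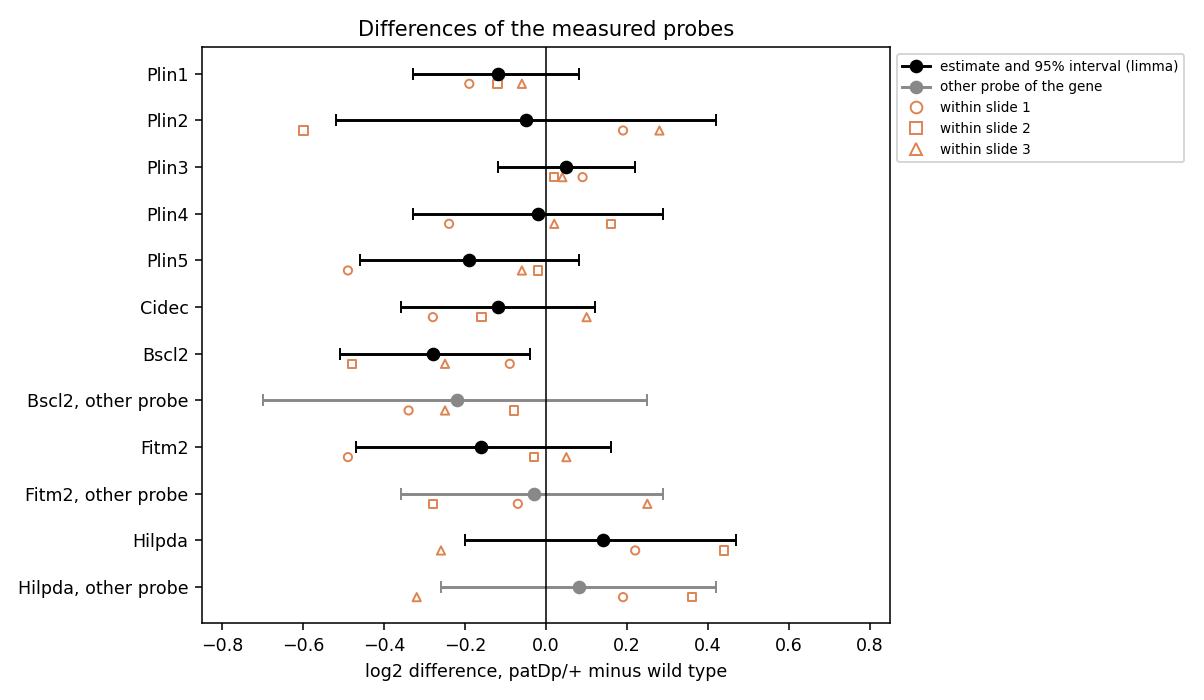
Log2 difference of each of the 12 tested probes, patDp/+ minus wild type, with limma's 95% interval (black for the probe that represents a gene, grey for its other probe) and the difference within each slide (open symbols). The interval of the first Bscl2 probe alone lies wholly below 0, and the differences within slides lie on both sides of 0 for Plin2, Plin4, Cidec, both Fitm2 probes and both Hilpda probes.

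The droplet genes were also read against the mean level of adipocyte marker transcripts on each array, which does not measure adipocyte number. Of 12 adipocyte markers 10 were measured, 9 of them lower and 0 past an unadjusted p of 0.05, with a median log2 difference of -0.10. Adipoq, the adiponectin gene, differed by -0.09 ± 0.08, and Lep, the leptin gene, was the marker with a higher mean in patDp/+ fat, at 0.43 ± 0.19 (limma, unadjusted p = 0.0633, adjusted p = 0.942). The summed linear level of these markers was 2320 to 2700 in wild type and 2150 to 2400 in patDp/+ fat. Their mean log2 level differed by -0.07 (exact permutation test, two-sided p = 0.3). Relative to that mean, Bscl2 differed by -0.21 with an exact two-sided permutation p of 0.1, the smallest that 3 against 3 arrays allow. The other 8 measured genes gave exact permutation p-values of 0.2 to 1. Their log2 differences included 0.12 for Plin3, -0.12 for Plin5 and -0.06 for Plin1.

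Markers of other cells in the depot had differences of both signs, and their part in the differences above was not tested. For the counts that follow, 2.09% of all probes were higher and 3.16% lower at an unadjusted p under 0.05. Macrophage markers had 10 of 10 measured, 9 with a higher mean and 0 past an unadjusted p of 0.05, with a median of 0.21 (0.13 without patDp/+ replicate 1, 0.37 without patDp/+ replicate 3) and a summed level of 73.6 to 78.2 in wild type and 73.6 to 106 in patDp/+ fat. Endothelial markers had 6 of 6 with a lower mean, 1 of them at an unadjusted p under 0.05, with a median of -0.20 and a summed level of 23.4 to 25.9 against 20.4 to 24.3. B cell markers had 3 of 6 lower at an unadjusted p under 0.05 and a median of -0.66, which was -0.30 in the deposited table and 0.17 with normexp, with a summed level of 1.52 to 2.16 in wild type and 0.732 to 1.64 in patDp/+ fat, and T cell markers had 2 of 5 higher at that threshold and a median of 0.44 (0.24 without patDp/+ replicate 1 and 0.23 in the deposited table), with 0.589 to 0.706 against 0.779 to 0.926. Mesothelial markers had a median of 0.06, progenitor markers of 0.12 (0.01 with normexp), erythroid markers of 0.15 (-0.02 if wild type replicate 3 is left out and -0.19 if patDp/+ replicate 3 is) and epididymis markers of -0.35, the last from 2 measured genes of 5. Of the brown adipocyte markers 4 of 6 were measured, and Ucp1 and Elovl3 were not tested. Their median was 0, with Cox8b at -0.29 and Cox7a1 at 0.20, and it was -0.24 without wild type replicate 1 and 0.29 without wild type replicate 2. Cidea, a relative of Cidec known from brown fat, read 2.19 on wild type replicate 2, the array that was also highest for Plin2, and 0.67 to 1.83 on the other arrays.

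The groups were checked on the genes of the duplicated stretch. All 6 measured genes of that list were higher in patDp/+ fat at an unadjusted p under 0.05, with a median of 0.81, and no adjusted p below 0.44. Snrpn differed by 1.18 ± 0.12 and Ndn by 1.07 ± 0.13 (limma, unadjusted p = 6.07e-05 and 0.000127, adjusted p = 0.44 for each). The lowest correlation of an array with another was 0.987 to 0.99 across probes, which are not independent replicates. Each array had 26086 to 29509 probes well above background, and no probe of a lipid droplet gene was saturated on any array.

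Other genes of lipid storage were taken from lists chosen by function, with earlier results of these data known. Of 17 other droplet proteins 13 were measured, 4 higher and 9 lower, with none past an unadjusted p of 0.05 and a median of -0.04, which was 0.03 with adipocyte centring. Ces1d, a carboxylesterase of the adipocyte droplet, differed by -0.15 ± 0.10, the acyl-CoA synthetase gene Acsl3 by -0.12 ± 0.10, and Cavin1, the caveolar coat gene, by 0.08 ± 0.08. Of 11 lipases and cofactors 10 were measured, 9 with a lower mean, none past that threshold and a median of -0.10, which was -0.23 with normexp and -0.17 without wild type replicate 2. Abhd5, the gene of the ATGL activator that perilipin 1 holds at rest, differed by -0.33 ± 0.17, the phosphodiesterase gene Pde3b by -0.26 ± 0.14 and Pnpla3 by -0.51 ± 0.28. Pnpla2, the gene of ATGL itself, differed by 0.00 ± 0.13 in a fit without wild type replicate 2, whose spot was marked as an outlier.

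Triglyceride synthesis had 13 of 13 genes measured, 10 with a lower mean, where 56.6% of all probes had a difference below 0. That share of all probes was 35.2% with normexp. The median of the list was -0.07, which was 0 without patDp/+ replicate 2 and -0.19 with normexp. At an unadjusted p under 0.05, 0 genes were higher and 3 lower, beside 2.09% and 3.16% of all probes. The 3 were Lpin1, a phosphatidate phosphatase, at -0.41 ± 0.12 (unadjusted p = 0.0105), the acyltransferase Mogat1 at -0.41 ± 0.14 (0.0241) and the acyltransferase Gpat3 at -0.48 ± 0.18 (0.0333). Lpin1 read 4.37, 4.31 and 4.42 in wild type and 3.74, 3.98 and 4.13 in patDp/+ fat, so its groups did not overlap. Of all probes, 6.59% had no overlap with patDp/+ lower. Dgat2, which adds the last acyl chain, differed by -0.06 ± 0.12. None of the 3 passed adjustment over all probes, with limma adjusted p-values of 0.931 for Lpin1 and Mogat1 and 0.942 for Gpat3.

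Among 12 measured of 13 transcription regulators of fat genes, 9 had a lower mean, with a median of -0.15, or -0.26 with normexp. At an unadjusted p under 0.05, 2 of them were lower, beside 3.16% of all probes. Ppargc1a, a coactivator of mitochondrial genes, read -0.72, -1.01 and -1.02 in wild type and -1.36, -1.41 and -1.91 in patDp/+ fat, with no overlap. It differed by -0.64 ± 0.17 (limma, unadjusted p = 0.00912, adjusted p = 0.931). Mlxipl, the gene of the glucose-responsive factor ChREBP, differed by -0.39 ± 0.15 (limma, unadjusted p = 0.0423, adjusted p = 0.942) and Ppara by -0.30 ± 0.13. Pparg, the factor that drives Plin1 and Cidec in adipocytes, differed by 0.05 ± 0.12.

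The lists of PPAR and of hypoxia targets relate to the known inducers of Plin2, Plin5 and Hilpda. PPAR and fasting targets had 12 of 12 measured, 3 higher and 9 lower. At an unadjusted p under 0.05, 1 passed in each direction, beside 2.09% of all probes higher and 3.16% lower. The median was -0.11. This median was -0.01 without patDp/+ replicate 1, and -0.04 both without wild type replicate 2 and with adipocyte centring. Acot1, a thioesterase, was lower at -0.53 ± 0.12 (limma, unadjusted p = 0.00445, adjusted p = 0.931), while Cpt1a, which admits fatty acids to mitochondria, was higher at 0.22 ± 0.09 (limma, unadjusted p = 0.0472, adjusted p = 0.942). Acadm differed by -0.15 ± 0.09, Angptl4 by -0.09 ± 0.16 and Fabp4 by -0.08 ± 0.11. Hypoxia targets had 12 of 12 measured, 5 higher and 7 lower, with a median of -0.05 that was 0.02 with adipocyte centring, and Adm, the adrenomedullin gene, was the 1 gene lower at that threshold, at -0.25 ± 0.10 (limma, unadjusted p = 0.0379, adjusted p = 0.942). Ankrd37 differed by 0.24 ± 0.15, Bnip3 by -0.23 ± 0.17 and Vegfa by -0.09 ± 0.15.

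**Figure D3:**
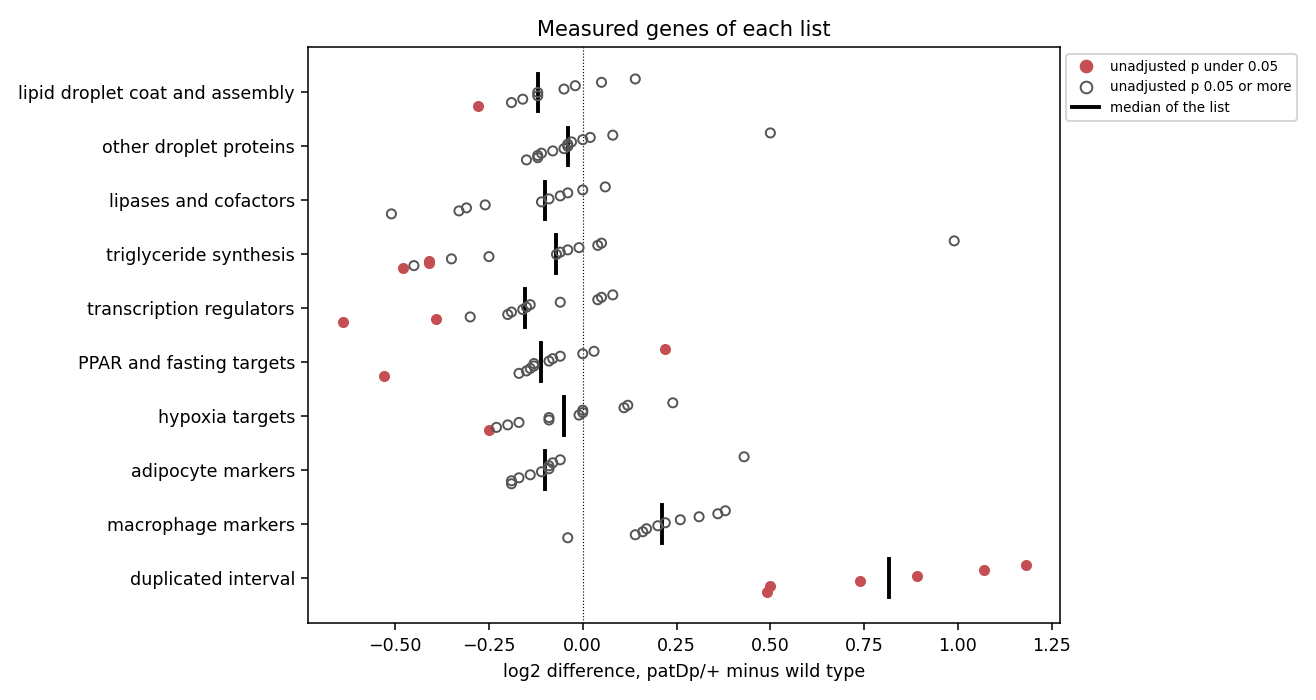
Log2 difference, patDp/+ minus wild type, of each measured gene of the lipid droplet genes and the other lipid lists. Adipocyte markers, macrophage markers and the genes of the duplicated stretch are shown too, and the remaining marker lists are not. Points are filled where the unadjusted limma p was under 0.05, and the median of each list is a bar. The lipid droplet genes lie between -0.28 and 0.14, and the duplicated genes are all higher.

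The genes whose 6 values followed Plin2 most closely are given as a description, since all points share the arrays and their scaling. Among 13792 genes with a symbol, Ppip5k1 had the highest Pearson r with Plin2 (0.993 over 6 arrays), followed by Psmd10 and Tmem268 (0.988 each) and Draxin (0.987). With 6 arrays, 240 genes had an r over 0.9. Ppip5k1 read 2.20, 2.56 and 2.28 in wild type and 2.33, 2.27 and 2.41 in patDp/+ fat, again highest on wild type replicate 2.

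Windows from 250 bases before to 50 after each start site, from RefSeq on GRCm38.p6, held 15 starts for the 10 genes among 32851 in all. They were searched on both strands for short motifs related to the inducers named above. A match describes letters in the window and is neither a site nor a cause. The lines show the stretch upstream of Plin2 with a match to the direct repeat AGGTCANAGGTCA of PPAR sites, and the stretch upstream of Hilpda with the hypoxia core ACGTG, each on the strand of its gene with the match in capitals.
Plin2, chr4:86670260-86670296, minus strand: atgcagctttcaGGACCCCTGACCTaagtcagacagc
Hilpda, chr6:29272571-29272599, plus strand: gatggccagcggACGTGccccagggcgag
The Plin2 match starts at base -225 from the start site, lies on the opposite strand and has 2 mismatches. A match with up to 2 mismatches was held by 3.86% of all windows, and an exact one by 0.0396%, with none among the lipid droplet genes. The Hilpda match starts at base -43, in the second of the Hilpda windows, and ACGTG was held by 19.6% of all windows. Plin2 also held it at base -4 and at base -3 within the palindrome CACGTG, which 7.15% of all windows held. CCAAT was held by 5 of the 15 windows (of Bscl2, Plin2, Plin3, Plin4 and Plin5) and by 37.4% of all windows. GGGCGG was held by 8 of the 15, which belong to 6 of the genes, and by 35.7% of all windows. TATAAA was held by none of the 15 and by 13.6% of all windows.

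**Figure D4:**
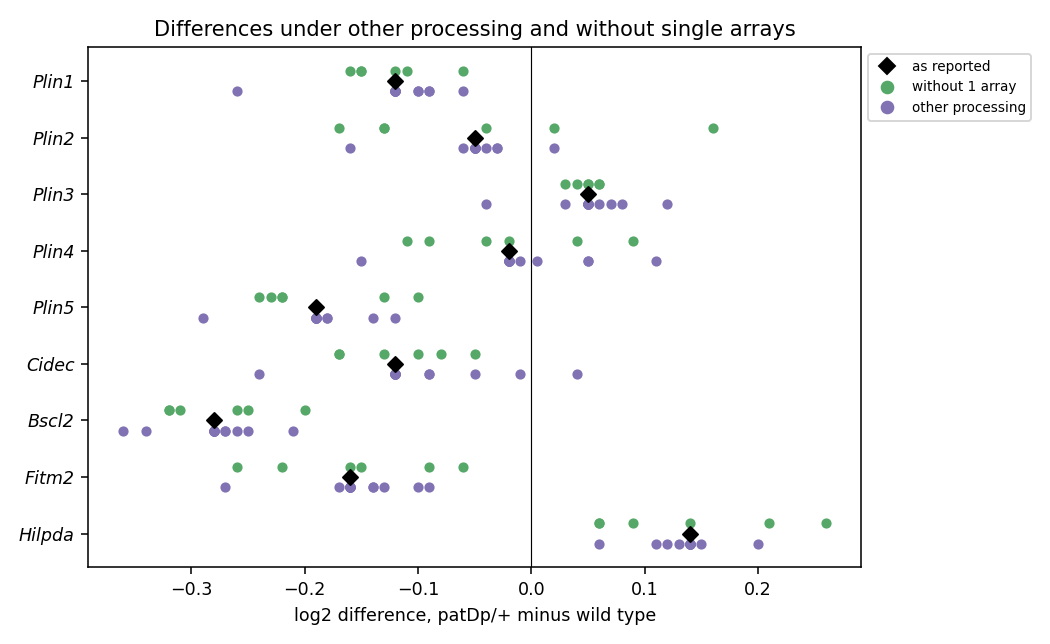
Log2 difference, patDp/+ minus wild type, of each measured lipid droplet gene as reported (diamond), with each of the 6 arrays left out (green) and under the other processing settings (purple). Plin1, Plin5, Bscl2 and Fitm2 stay below 0 and Hilpda above 0 in all 20 alternatives, whereas Plin2, Plin3, Plin4 and Cidec have values on both sides of 0. Settings that change only the filter, the block or the variance model cannot move a difference, so the alternatives are not separate checks.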

How the data were processed

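Per the file headers, Feature Extraction 9.5.1.1 read the arrays, and its deposited processed intensity is background-subtracted. The mean and local background intensity of each spot are given as well. Tools listed in the submitters' processing notes are limma 3.18.2 and Agilent Feature Extraction 9.5. The authors also deposited a log2 table of the 6 arrays, used as an alternative. Groups came from the sample titles, which the genotype labels repeat, although the source name of every sample reads wild type. Here, log2 processed intensity minus each array's 75th percentile was computed, leaving out controls and outlier spots. Probes well above background on at least 3 arrays (27975) were fitted with limma 3.58.1 in R 4.3.3 (two-sided, no covariates, Benjamini-Hochberg over all probes), and the fit was tested on simulated data. A gene is represented by its brightest kept probe. All lipid droplet genes are named. From each lipid list up to 3 genes with the smallest p were named, together with 9 genes named whatever their values, Snrpn and Ndn, and the 4 genes most like Plin2. Other markers named singly (muscle and brown adipocyte) were named after their values were seen. Members and lists were chosen with earlier results of these data known. Titles number the animals 1 to 3 and the slides hold the same pairs. Deviations of same-numbered arrays correlated at 0.118, -0.096 and -0.0301. Such values cannot show whether the animals were paired, so the blocks are given as alternatives. Alternatives covered background correction, normalization, filters, probes, blocks, weights, variance model and each array left out.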

Additional observations from a re-analysis of the deposited data

How the results depend on the processing

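No probe passed an adjusted p of 0.05 in any of the 20 alternatives, as in the reported fit, and no lipid droplet gene was higher at an unadjusted p under 0.05 in any of them. Normexp background correction moved the median of all probes to 0.12 and that of the lipid droplet genes to -0.24, or -0.36 relative to it, and gave -0.04 for Plin3, 0.27 for the other Bscl2 probe and 0.01 for the other Fitm2 probe. Quantile normalization gave 0.05 for Plin4 and 0.04 for Cidec, cyclic loess 0.0046 for Plin4, and array weights 0.11 for Plin4. Centring on adipocyte markers gave 0.02 for Plin2, 0.05 for Plin4 and 0.03 for the other Fitm2 probe. The count of lipid droplet genes lower at an unadjusted p under 0.05 was 1 as reported. It was 0 with that centring, with the mean of a gene's probes, with the replicate block and with the slide as a block. The replicate block and the slide block are the same fit here, with 1353 probes at an unadjusted p under 0.05. With single arrays left out the difference ranged from -0.17 to 0.16 for Plin2, from -0.11 to 0.09 for Plin4 and from -0.17 to 0.08 for the other Fitm2 probe. In the same fits, the count of lipid droplet genes lower at an unadjusted p under 0.05 ranged from 0 to 1. The number of probes at an unadjusted p under 0.05, 1471 as reported, ranged from 1038 to 2420 with single arrays left out, the highest without patDp/+ replicate 3, and was 2488 with array weights. The cause of these shifts was not tested. The number of arrays, 3 in each group, limits the precision, and Fitm1 was limited by its signal over background.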
